A study of Mus musculus with 11 samples.

Results

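The genes described here are 38 interferon-stimulated genes, picked by name from a list that spans the main protein families of the antiviral response. The list was chosen with earlier results of these data known. All 38 were found among the 23071 gene identifiers of the deposited table of FPKM (fragments per kilobase, scaled to library depth). RNA had been sequenced from C57BL/6 mice in 11 libraries that fall into 3 groups. Column-purified bone marrow progenitor B cells of wild-type mice made up 3 libraries, each a pool of 3, 7 or 6 mice. Progenitor B cells of Ebf1+/- mice (Ebf1 heterozygous) were prepared in the same way in 3 libraries that pooled 3, 6 and 7 mice. The 5 leukemia libraries held leukemic B cells from lymph node suspensions of 1 mouse each, with the genotype Pax5+/- x Ebf1+/-. No source used here gives ages. Leukemia and wild type thus differed in genotype, leukemic state, tissue, purification and pooling, and these cannot be told apart. Recovered library totals ran from 8506680 to 15313920 reads, and a single read corresponded to 0.0327 to 0.0588 FPKM for a transcript of 2000 bases.

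Interferons are secreted proteins that cells release when they sense viral nucleic acids. Type I interferons signal through the receptor Ifnar1 and Ifnar2 and the kinases Jak1 and Tyk2 to a complex that includes Stat2 and Irf9 and binds the interferon-stimulated response element (ISRE). Type II interferon (Ifng) signals through Ifngr1 and Ifngr2, Jak1 and Jak2 to genes that carry the gamma-activated sequence (GAS). In B cell progenitors type I interferon is known to restrain the growth response to interleukin 7.

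The labels could be checked in part. Pax5 stood at 175 to 312 FPKM in wild type, 89.0 to 254 in Ebf1+/- cells and 71.4 to 162 in leukemia. Ebf1 stood at 83.4 to 112 FPKM, 43.4 to 86.5 and 54.3 to 81.4 in the same order. For both genes the leukemias lay below every wild-type library, while the Ebf1+/- libraries overlapped wild type. The 8 B lineage markers summed to 2232 to 3873 FPKM in wild type, 1699 to 4960 in Ebf1+/- cells and 3129 to 4327 in leukemia. The 12 granulocyte markers summed to 630 to 3394 FPKM in wild type and 2714 to 10664 in Ebf1+/- cells, but to 3.79 to 8.36 in leukemia. The bone marrow libraries therefore held RNA of cells outside the B lineage that the leukemias nearly lacked, and in such bulk samples fewer cells of a type and less RNA per cell cannot be told apart. Wild-type replicate 2 and Ebf1+/- replicate 2 were the closest of the 55 pairs of libraries, with a correlation across genes of 0.989, and whether they were mixed up was not tested.

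RefSeq promoter windows (GRCm38.p6, 250 bases before to 50 after a start site) were found for 29 of the 38 genes. They were searched on both strands, overlapping matches included, for an ISRE-like motif of 2 GAAA blocks set 2 bases apart, with any bases between them. At least 1 match lay in the windows of 15 of the 29 genes (51.7%), against 3.99% of 27025 gene symbols. The GAS-like motif, TTC and GAA set 3 bases apart, was found in 7 of the 29 (24.1%), against 9.55% of all symbols. The 150 bases from 130 before the start site to the 20 that follow are printed for 8 genes, to set 7 genes whose levels differed in leukemia, and Isg15, which did not pass, beside the sequence in front of them. Capitals mark the ISRE-like matches, which read TTTC where the match is on the opposite strand.
Isg15, chr4:156200799-156200948, minus strand: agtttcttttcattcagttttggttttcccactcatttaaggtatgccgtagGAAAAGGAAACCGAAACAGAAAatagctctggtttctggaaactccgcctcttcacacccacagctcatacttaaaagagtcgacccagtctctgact
Oas1a, chr5:120907506-120907655, minus strand: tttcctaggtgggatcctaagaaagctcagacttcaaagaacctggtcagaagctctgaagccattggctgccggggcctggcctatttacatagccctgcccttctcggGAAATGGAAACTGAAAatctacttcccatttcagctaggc
Gbp2, chr3:142620533-142620682, plus strand: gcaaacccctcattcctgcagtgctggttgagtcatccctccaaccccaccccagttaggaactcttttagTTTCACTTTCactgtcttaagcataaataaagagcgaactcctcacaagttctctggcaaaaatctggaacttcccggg
Gbp3, chr3:142559914-142560063, plus strand: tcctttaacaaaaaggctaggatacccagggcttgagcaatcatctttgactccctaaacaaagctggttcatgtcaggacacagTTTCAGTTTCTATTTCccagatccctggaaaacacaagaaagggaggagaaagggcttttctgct
Ifitm2, chr7:140955942-140956091, minus strand: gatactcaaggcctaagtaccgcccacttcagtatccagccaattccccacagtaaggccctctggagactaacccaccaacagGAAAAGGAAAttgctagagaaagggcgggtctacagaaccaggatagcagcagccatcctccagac
Ifitm1, chr7:140967946-140968095, plus strand: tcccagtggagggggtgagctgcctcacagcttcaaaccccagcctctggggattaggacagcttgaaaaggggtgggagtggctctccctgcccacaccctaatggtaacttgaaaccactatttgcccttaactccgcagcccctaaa
Rsad2, chr12:26456433-26456582, minus strand: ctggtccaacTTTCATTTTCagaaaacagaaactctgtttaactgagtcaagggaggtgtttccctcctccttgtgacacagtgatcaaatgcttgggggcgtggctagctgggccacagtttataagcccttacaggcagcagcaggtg
Samhd1, chr2:157135077-157135226, minus strand: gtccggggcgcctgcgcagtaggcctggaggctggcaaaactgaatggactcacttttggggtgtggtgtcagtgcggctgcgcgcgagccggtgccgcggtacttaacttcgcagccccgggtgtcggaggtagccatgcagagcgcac
Isg15, the ubiquitin-like founder of the response, held 3 overlapping matches that began 78, 72 and 66 bases before its start. Oas1a and Gbp3 held 2 overlapping matches each, and Gbp2, Ifitm2 and Rsad2 held 1. No ISRE-like match was found in the windows of Ifitm1 and Samhd1. The start sites of Oas1a, Gbp3, Ifitm1 and Ifitm2 in the RefSeq table differ from the outer end of the gene in the same annotation. Matches are a description of sequence and not sites shown to be bound.

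In leukemia against wild type, some of the 38 genes rose, fewer fell, and 20 passed in neither direction. At an adjusted p under 0.05 (limma on log2(FPKM + 1), Benjamini-Hochberg over all 10968 genes tested), 13 were higher, against a background of 20.7% of all genes tested, and 5 were lower, against 24.1%. The 13 that rose are Usp18, Ifit3, Oas1a, Oas2, Mx2, Gbp2, Gbp3, Ifitm1, Ifitm2, Dhx58, Parp9, Xaf1 and Rtp4, or 34.2% of the members. The 5 that fell are Zbp1, Stat2, Rsad2, Cmpk2 and Samhd1, or 13.2%. Without overlap between the groups, 11 members were higher (background 21.2%) and 6 were lower (background 25.1%). The median log2 difference was 0.40 over the members and -0.04 over all genes tested. Leaving out wild-type replicate 2 reduced the 13 to 8, while array weights gave 23.

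**Figure D1:**
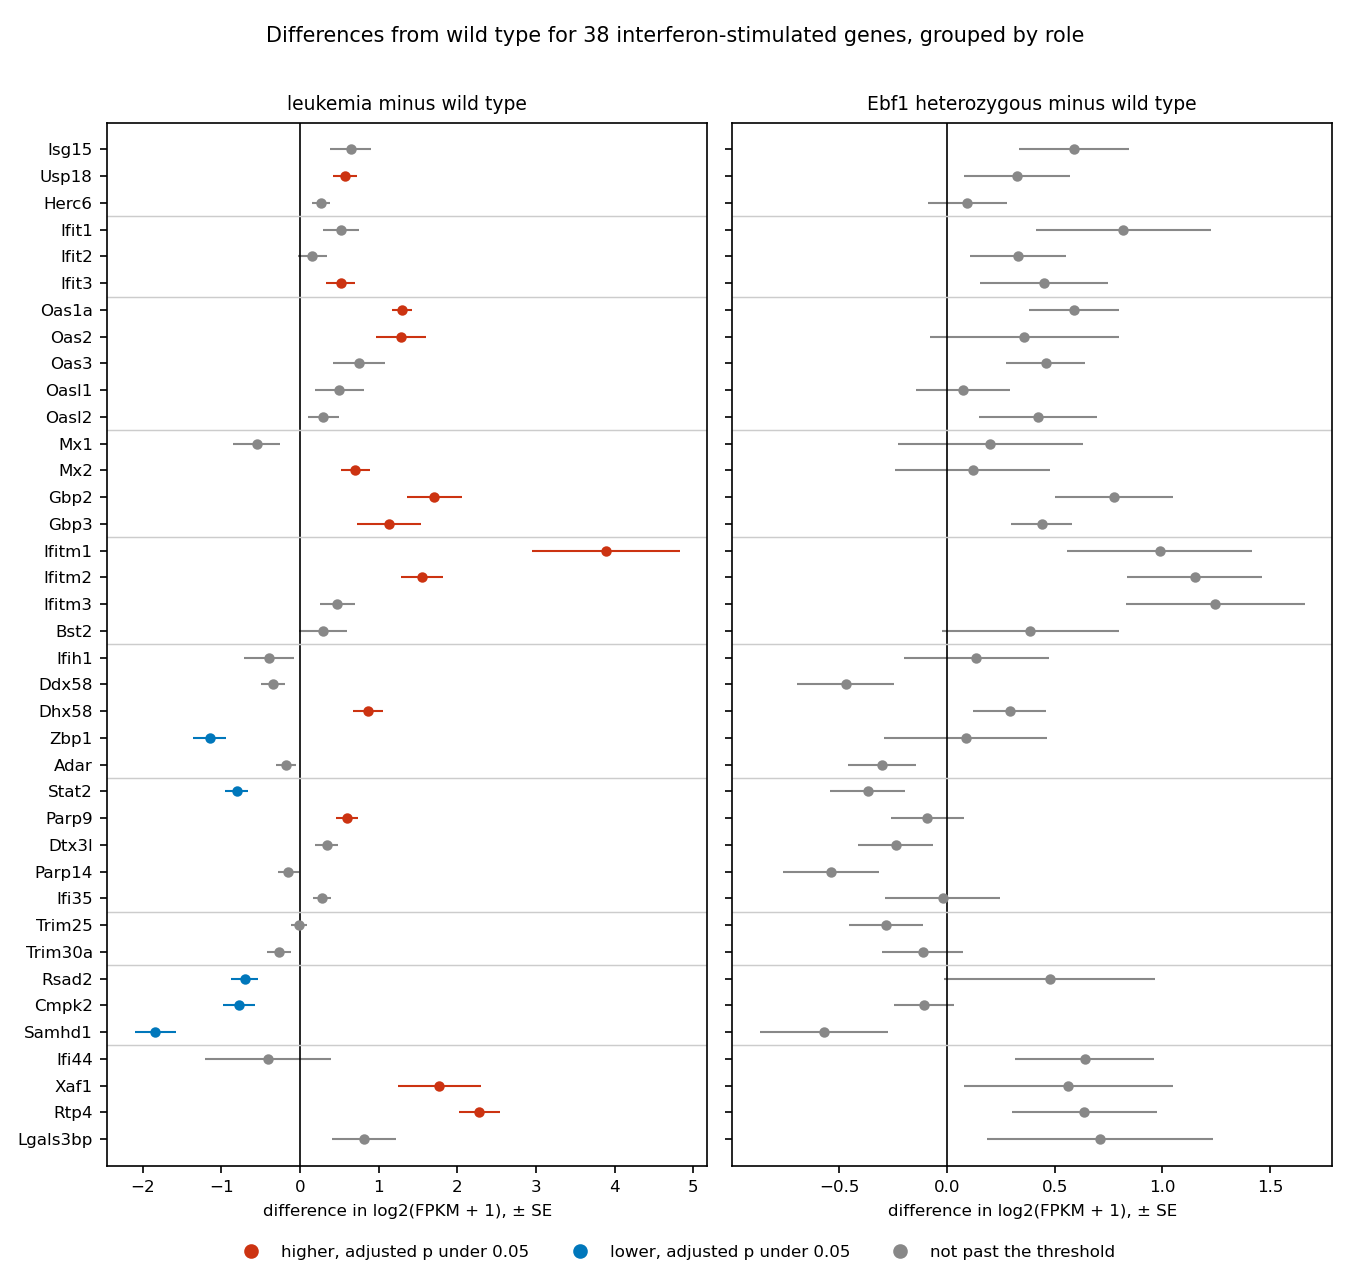
Difference from wild type in log2(FPKM + 1), with its SE, for the 38 genes in leukemia (left) and in Ebf1+/- cells (right), grouped by role; the horizontal scales of the panels differ. Red marks the 13 genes called higher and blue the 5 called lower in leukemia, and no gene is coloured in the right panel; both panels share the wild-type libraries.

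The membrane restriction factors, which block the entry or release of enveloped viruses, included the largest rise. Ifitm1 (chromosome 7, 140967429 to 140969827) read 4.40, 1.41 and 2.96 FPKM in wild type, 11.4, 3.82 and 5.67 in Ebf1+/- cells, and 38.8, 173, 22.5, 258 and 11.1 in leukemia replicates 1 to 5. Every leukemia lay above every wild-type library, yet the highest and lowest leukemia were far apart, and leukemia replicate 5 lay below Ebf1+/- replicate 1. The log2 difference from wild type was 3.89 (SE 0.94, limma adjusted p = 0.00931), and on recovered reads with voom the adjusted p was 0.183.

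Ifitm2 (chromosome 7, 140954837 to 140959686), which restricts viruses that enter through endosomes, had the highest mean FPKM of the 38 over all 11 libraries, although Bst2 (83.8) and Samhd1 (71.2) averaged more than Ifitm2 (60.7) in wild type. It read 37.4, 68.9 and 75.9 FPKM in wild type, 151, 96.9 and 151 in Ebf1+/- cells, and 210, 161, 157, 234 and 122 in leukemia. Wild type lay below all other libraries, and the other 2 groups overlapped. The log2 difference of leukemia from wild type was 1.55 (SE 0.27, limma adjusted p = 0.00184).

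Ifitm3, which also acts in endosomes, had a different order of groups. It read 49.9, 40.1 and 53.0 FPKM in wild type, 199.9, 58.9 and 124 in Ebf1+/- cells, and 56.2, 71.6, 49.0, 104 and 60.9 in leukemia. Leukemia overlapped both other groups, and the difference from wild type of 0.47 (SE 0.22) did not pass (limma adjusted p = 0.114). Bst2 (tetherin), which holds budding virus at the cell surface, read 80.9, 51.4 and 119 FPKM in wild type, 146, 61.1 and 125 in Ebf1+/- cells, and 131, 108, 92.4, 115 and 57.8 in leukemia. All 3 groups overlapped for Bst2. The Ifitm genes are close paralogs in 1 cluster, and the assignment of reads among them is uncertain. In the leukemias the granulocyte markers were near 0. Monocyte and macrophage markers summed to 63.3 to 164 FPKM there, and T cell markers to 57.9 to 115. In wild type these sums were 397 to 663 and 26.9 to 37.3. Lck made up most of the T cell sum in leukemia. Of 7 T cell markers tested in leukemia against wild type, 5 had a negative difference. Of the 7, 1 was called higher (background 20.7%) and 0 lower (background 24.1%). The part of other cells in the Ifitm levels was not tested.

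**Figure D2:**
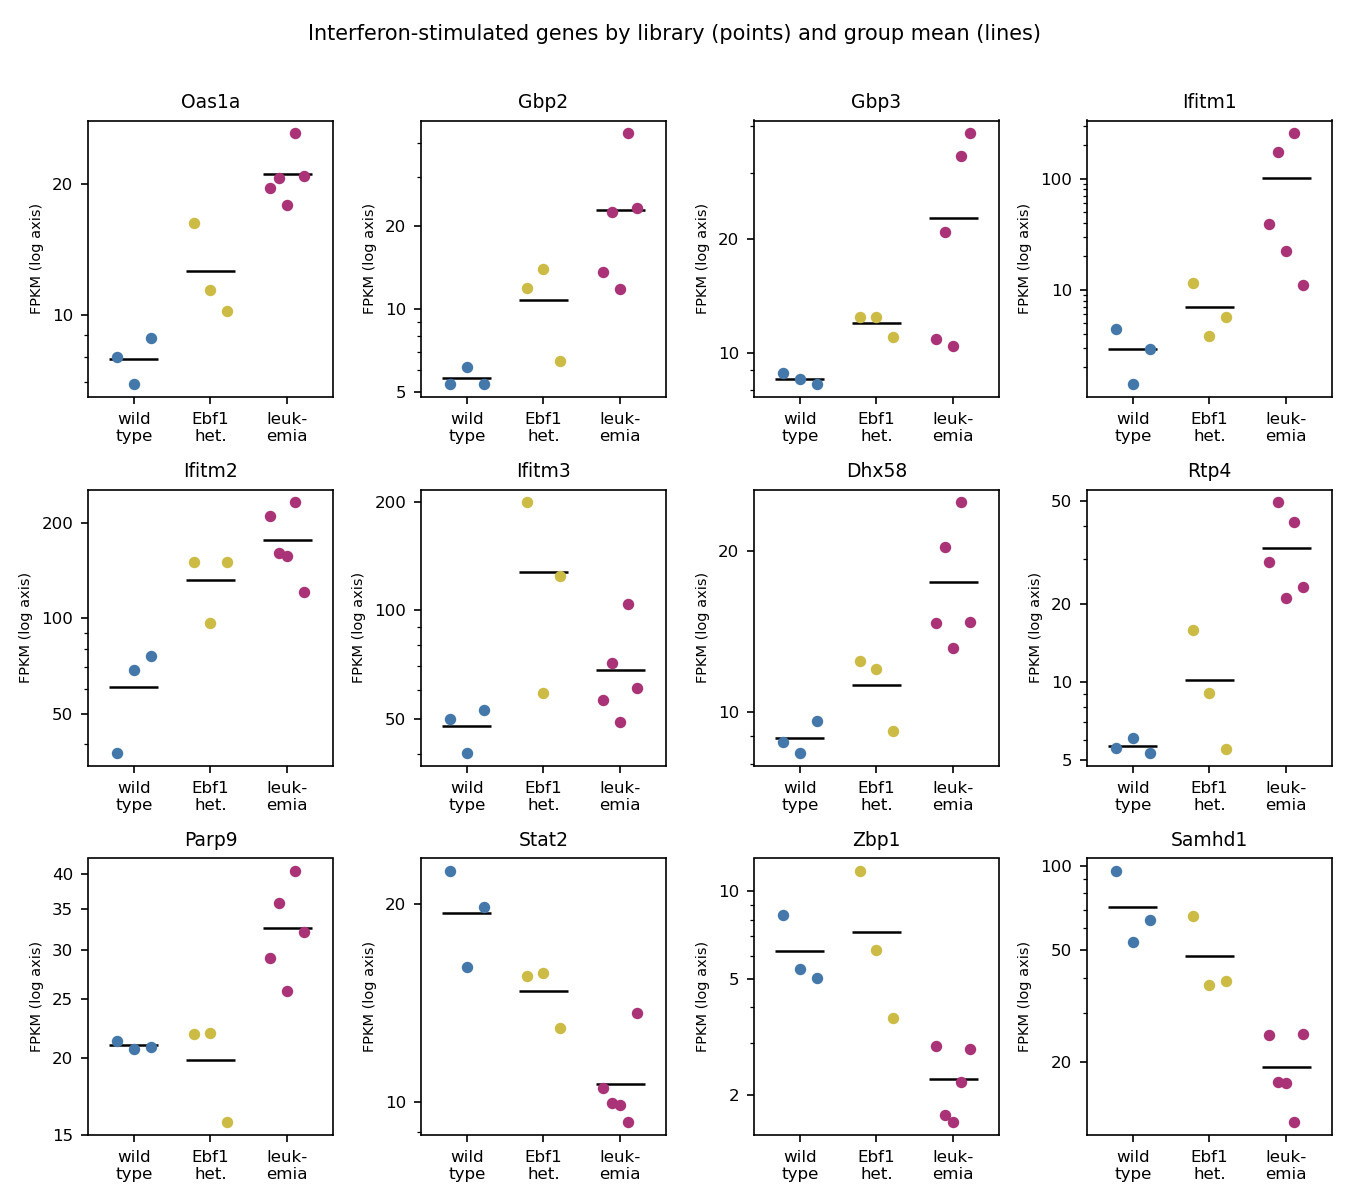
FPKM on a log axis for 12 of the genes in each library (points) with the arithmetic mean of the group (lines). Leukemia lies above every wild-type library for Oas1a, Gbp2, Gbp3, Ifitm1, Ifitm2, Dhx58, Rtp4 and Parp9, below for Stat2, Zbp1 and Samhd1, and overlaps wild type for Ifitm3.

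Oligoadenylate synthetases make the second messenger that activates RNase L. The 5 family genes listed here, which include the synthetase-like Oasl1 and Oasl2, all had a positive difference in leukemia. Of these, Oas1a and Oas2 rose. Oas1a (chromosome 5, 120896256 to 120907544) read 8.02, 6.92 and 8.84 FPKM in wild type, 16.3, 11.4 and 10.2 in Ebf1+/- cells, and 19.6, 20.6, 17.9, 26.1 and 20.8 in leukemia. The 3 groups were ordered without overlap, with Ebf1+/- cells in between. The log2 difference from wild type was 1.30 (SE 0.13, limma adjusted p = 0.00013), with the smallest SE among the members that rose. Oas2 averaged 1.23 ± 0.815 FPKM in wild type (SD, n = 3) and 4.47 ± 1.69 in leukemia (n = 5), a log2 difference of 1.29 (SE 0.32, limma adjusted p = 0.0106). Oas3 and the related Oasl1 and Oasl2, which did not pass, had differences of 0.75, 0.50 and 0.30. Oas3 was at 7.005 to 7.998 FPKM in leukemia replicates 1 to 3 but at 4.10 and 2.15 in replicates 4 and 5, whereas Oas2 was lowest in replicate 4.

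Among the large GTPases, Gbp2, Gbp3 and Mx2 rose. Gbp2 (chromosome 3, 142620663 to 142638008), a guanylate-binding protein that acts on the membranes of pathogen vacuoles, read 5.36, 6.18 and 5.34 FPKM in wild type, 11.9, 13.9 and 6.504 in Ebf1+/- cells, and 13.6, 22.4, 11.8, 43.4 and 23.3 in leukemia. Wild type lay below both other groups. The log2 difference of leukemia from wild type was 1.71 (SE 0.35, limma adjusted p = 0.00451). Its neighbour Gbp3 (142560016 to 142573213) read 8.86, 8.57 and 8.26 FPKM in wild type, 12.5, 12.5 and 11.04 in Ebf1+/- cells, and 10.9, 21.0, 10.5, 33.3 and 38.3 in leukemia. Leukemia replicates 1 and 3 lay below every Ebf1+/- library and the other 3 above them all. The difference of 1.13 (SE 0.41) passed narrowly (limma adjusted p = 0.0491) and was kept in 8 of 17 alternative settings.

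The Mx proteins trap viral ribonucleoproteins, and C57BL/6 mice are known to carry defective alleles of both Mx genes. Mx2 averaged 1.30 ± 0.367 FPKM in wild type and 2.75 ± 0.612 in leukemia, a log2 difference of 0.70 (SE 0.19, limma adjusted p = 0.0138) that was lost with all groups in 1 fit, under the replicate block and without wild-type replicate 2. Mx1 averaged 1.75 ± 0.913 FPKM in wild type and 0.840 ± 0.454 in leukemia, a difference of -0.55 (SE 0.30) that did not pass.

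The guanylate-binding protein genes lie in 2 clusters, and further genes of both, though not every gene, were compared after the values had been seen. In the chromosome 3 cluster, Gbp7 averaged 6.98 ± 2.68 FPKM in wild type, 15.2 ± 2.82 in Ebf1+/- cells and 46.3 ± 23.5 in leukemia, a log2 difference from wild type of 2.48 (SE 0.41, limma adjusted p = 0.00157). Gbp5 of the same cluster averaged 4.10 ± 0.281 FPKM in wild type, against 7.42 ± 4.58 in the leukemias, and did not pass. In the chromosome 5 cluster the called genes among those compared went the other way. Gbp9 fell from 18.0 ± 4.74 to 3.49 ± 0.352 FPKM, a difference of -2.06 (SE 0.16, limma adjusted p = 3.81e-05), and Gbp4 from 4.48 ± 1.27 to 1.39 ± 0.243 FPKM, a difference of -1.17 (SE 0.19, adjusted p = 0.00135). Gbp8 was too low to be tested, with every leukemia (0.0607 to 0.291 FPKM) below every wild-type library (0.446 to 1.68), and Gbp6 overlapped between the groups. In Ebf1+/- cells Gbp9 averaged 7.86 ± 2.17 FPKM, between the other 2 groups. These genes are paralogs, so reads may be split among them.

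**Figure D3:**
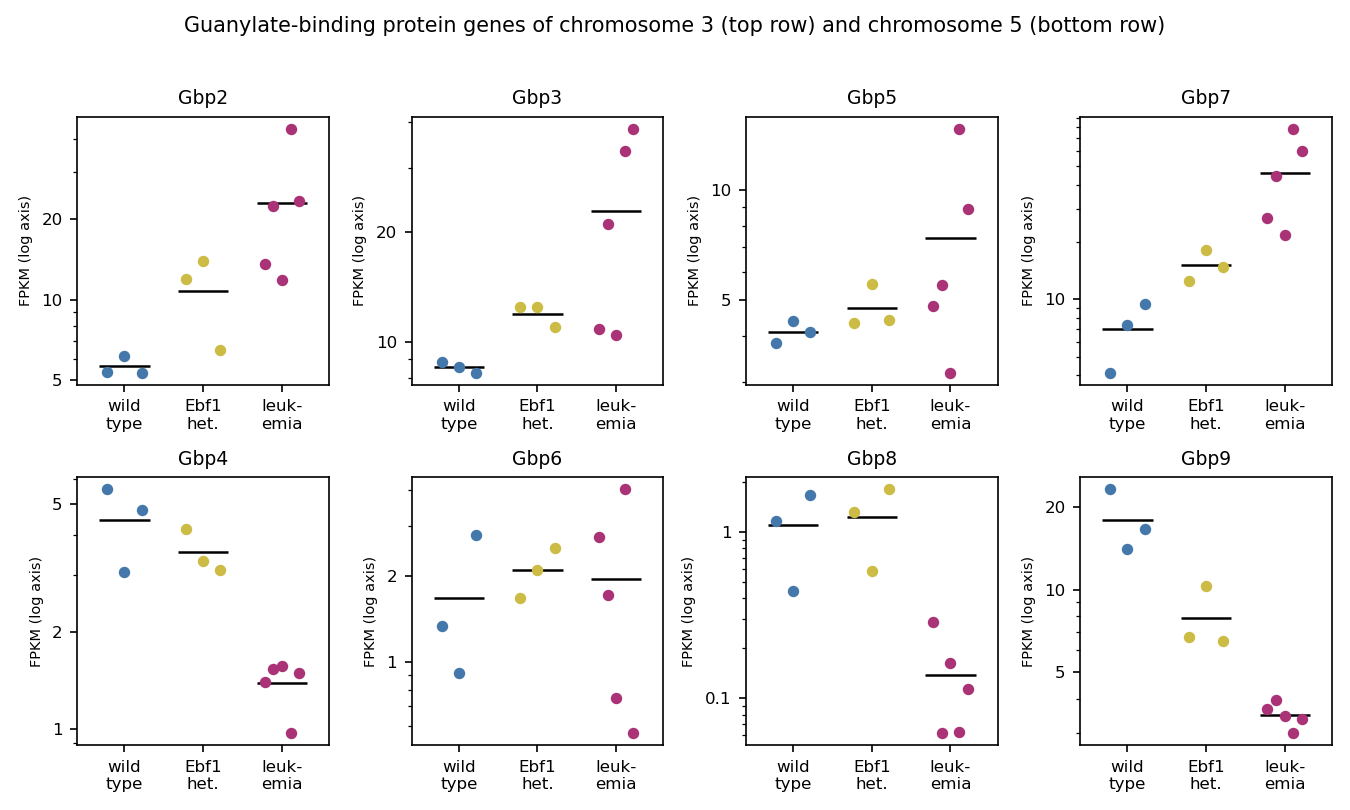
FPKM on a log axis for guanylate-binding protein genes from the chromosome 3 cluster (top) and the chromosome 5 cluster (bottom) in each library (points), with group means (lines). Leukemias lie above wild type for Gbp2, Gbp3 and Gbp7 and below it for Gbp4, Gbp8 and Gbp9.

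Of the nucleic acid sensors and the RNA editor Adar, Dhx58 rose and Zbp1 fell. Dhx58 (LGP2, a helicase that modulates the RNA sensors; chromosome 11, 100694884 to 100704271) read 8.78, 8.36 and 9.61 FPKM in wild type, 12.5, 12.02 and 9.19 in Ebf1+/- cells, and 14.7, 20.3, 13.2, 24.7 and 14.8 in leukemia. Every leukemia lay above both other groups, and the log2 difference from wild type was 0.87 (SE 0.19, limma adjusted p = 0.00644). Zbp1, which senses Z-form nucleic acids and can start necroptosis (chromosome 2, 173206612 to 173218959), read 8.30, 5.42 and 5.04 FPKM in wild type, 11.7, 6.27 and 3.67 in Ebf1+/- cells, and 2.94, 1.69, 1.60, 2.22 and 2.87 in leukemia. Every leukemia lay below both other groups, with a difference from wild type of -1.15 (SE 0.21, limma adjusted p = 0.00245). The RNA sensors Ddx58 (RIG-I) and Ifih1 (MDA5) had differences of -0.34 and -0.40, and Adar, which edits adenosine in double-stranded RNA, of -0.18. None of these 3 passed.

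The STAT group holds 1 gene that fell and 1 that rose. Stat2 (chromosome 10, 128270498 to 128292853), the STAT of the type I complex that takes no part in type II signalling, read 22.4, 16.0 and 19.7 FPKM in wild type, 15.5, 15.7 and 12.9 in Ebf1+/- cells, and 10.5, 9.97, 9.89, 9.31 and 13.6 in leukemia. Wild type lay above both other groups, and 4 of 5 leukemias lay below every Ebf1+/- library. The log2 difference from wild type was -0.81 (SE 0.15, limma adjusted p = 0.00238), and the ISRE-like match of Stat2 lay 222 bases before its start. Parp9 (chromosome 16, 35938470 to 35972621), an ADP-ribosyltransferase that works as a pair with the ubiquitin ligase Dtx3l, read 21.4, 20.7 and 20.9 FPKM in wild type, 21.9, 22.02 and 15.7 in Ebf1+/- cells, and 29.2, 35.8, 25.7, 40.4 and 32.1 in leukemia. The leukemias lay above all other libraries, a difference from wild type of 0.60 (SE 0.14, limma adjusted p = 0.00779).

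Dtx3l, the gene next to Parp9, averaged 21.7 ± 0.775 FPKM in wild type and 28.0 ± 5.55 in leukemia (difference 0.34, limma adjusted p = 0.0858). Parp14, the next gene of the same cluster, and Ifi35, a leucine zipper protein of the response, had differences of -0.15 and 0.27, neither of which passed. The ubiquitin ligases Trim25, which activates RIG-I, and Trim30a had differences of -0.01 and -0.26 and did not pass. The interval of the Trim25 difference was narrow, with an SE of 0.10.

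All 3 nucleotide enzymes fell. Samhd1 (chromosome 2, 157097534 to 157135096), which hydrolyses deoxynucleotides and so limits reverse transcription, read 96.1, 53.5 and 64.1 FPKM in wild type, 66.6, 37.8 and 39.0 in Ebf1+/- cells, and 24.9, 16.9, 16.8, 12.1 and 25.1 in leukemia. The leukemias lay below every other library, with a log2 difference from wild type of -1.84 (SE 0.26, limma adjusted p = 0.000656). Cmpk2 (chromosome 12, 26469117 to 26479837), a mitochondrial kinase of pyrimidine nucleotides, read 19.5, 16.3 and 19.1 FPKM in wild type, 17.7, 16.3 and 16.7 in Ebf1+/- cells, and 8.29, 14.0, 10.8, 12.7 and 6.96 in leukemia. It too was lower in every leukemia than in any other library, with a difference from wild type of -0.77 (SE 0.21, limma adjusted p = 0.0144). Without wild-type replicate 1 the adjusted p of Cmpk2 was 0.0529.

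Rsad2 (viperin), which makes a chain-terminating nucleotide and lies beside Cmpk2, averaged 2.12 ± 0.457 FPKM in wild type and 0.909 ± 0.139 in leukemia (difference -0.70, limma adjusted p = 0.0101). The Rsad2 call was lost under quantile scaling, with all groups in 1 fit, under the replicate block and without wild-type replicate 2. Monocytes and granulocytes are known to express Samhd1, and summed markers of both were lower in leukemia than in wild type. In Ebf1+/- cells Samhd1 averaged 47.8 FPKM against 71.2 in wild type, while granulocyte sums were 2714 to 10664 FPKM against 630 to 3394. The 11 monocyte and macrophage markers summed to 397 to 663 FPKM in wild type, 492 to 2049 in Ebf1+/- cells and 63.3 to 164 in leukemia. Of these markers 6 were tested in leukemia against wild type, with 3 called lower and 1 higher (backgrounds 24.1% and 20.7%). Of the granulocyte markers Fcnb was at 0 in all leukemias. The part of such cells in the fall of Samhd1 was not tested.

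Rtp4 and Xaf1 rose among the remaining genes. Rtp4 (chromosome 16, 23520219 to 23614222), a chaperone of receptor transport, read 5.56, 6.11 and 5.31 FPKM in wild type, 15.9, 9.07 and 5.50 in Ebf1+/- cells, and 29.0, 49.6, 21.2, 41.5 and 23.4 in leukemia. Every leukemia lay above both other groups, and the log2 difference from wild type was 2.28 (SE 0.26, limma adjusted p = 0.000226). Xaf1, a partner of the apoptosis inhibitor Xiap, averaged 7.26 ± 3.99 FPKM in wild type and 29.5 ± 15.0 in leukemia, a difference of 1.77 (SE 0.53, limma adjusted p = 0.0238) that was lost without wild-type replicate 2, without wild-type replicate 3 and with voom. Leukemia replicate 3, at 7.35 FPKM, lay within the wild-type range for Xaf1 and the other 4 lay at 24.0 to 47.6.

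Lgals3bp, a secreted glycoprotein that binds galectins, was among the 4 members of highest mean FPKM over all 11 libraries, but not within wild type or leukemia alone. It read 15.0, 31.7 and 65.6 FPKM in wild type, 41.1, 42.8 and 81.7 in Ebf1+/- cells, and 55.0, 66.0, 42.7, 82.2 and 44.7 in leukemia. All groups overlapped, and its difference of 0.81 (SE 0.41) did not pass (limma adjusted p = 0.132).

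The modifier Isg15 and its enzymes had positive differences in leukemia, and Usp18 alone of the 3 passed. Usp18, which strips Isg15 from proteins and restrains the type I receptor, averaged 6.40 ± 0.803 FPKM in wild type and 10.1 ± 1.90 in leukemia (difference 0.57, limma adjusted p = 0.0156); the call was lost without wild-type replicate 2 and under the replicate block. Isg15 itself read 12.2, 11.5 and 11.4 FPKM in wild type, 26.5, 12.7 and 17.3 in Ebf1+/- cells, and 24.9, 22.4, 14.1, 26.5 and 11.3 in leukemia. Leukemia replicate 5 stood below all wild-type libraries and the other 4 above them, and the difference of 0.65 did not pass (limma adjusted p = 0.0717). Herc6, the ligase that attaches Isg15 in mice, had a difference of 0.27 (limma adjusted p = 0.0894).

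The Ifit proteins bind RNA with foreign ends. Ifit3 averaged 1.29 ± 0.407 FPKM in wild type and 2.27 ± 0.430 in leukemia, a difference of 0.52 (limma adjusted p = 0.0448) that was kept in 7 of 16 alternative settings. Ifit1 and Ifit2, at differences of 0.52 and 0.16, did not pass.

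By median SD, members varied more than a typical gene in all 3 groups, the 5 leukemias included. The median SD of log2(FPKM + 1) among the leukemias was 0.36 over the 38 genes and 0.19 over all genes tested, and 33 of the 38 lay above the latter. In wild type the corresponding medians were 0.23 and 0.18, with 23 of the 38 above the latter. In Ebf1+/- cells they were 0.44 and 0.29, with 26 above. Ifitm1 had the largest SD in leukemia, at 1.89, followed by Ifi44 at 1.59 and Xaf1 at 0.99. Ifi44 read 2.22, 0.446, 0.0554, 13.3 and 0.0480 FPKM in leukemia replicates 1 to 5, from 55, 17, 2, 499 and 2 reads, against 1.27 to 3.13 FPKM in wild type. Replicate 4 therefore lay above every wild-type library for Ifi44 and replicates 2, 3 and 5 below them all.

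Leukemia replicate 4 was the highest leukemia for 17 of the 38 genes and the highest of all 11 libraries for 13. Leukemia replicate 3 was the lowest leukemia for 19. Such counts were not made over all genes, so a shift of these genes cannot be told apart from one of the whole library. The median member stood 0.55 (log2 scale) above the wild-type mean in leukemia replicate 4, 0.42 in replicate 2, 0.30 in replicate 1, 0.23 in replicate 5 and 0.17 in replicate 3. Replicate 4 also had the highest sum of T cell markers, 115 FPKM against 57.9 to 90.0 in the other leukemias. Of those markers Lck, at a mean of 71.1 FPKM in leukemia, made up most of the sum, while Cd3e was at 0.970. Sums of plasmacytoid dendritic cell markers, which mark the main producers of type I interferon, were 48.1, 2.11, 32.1, 1.22 and 6.70 FPKM in leukemia replicates 1 to 5, so replicate 4 was the lowest. The part of other cells in these differences was not tested.

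**Figure D4:**
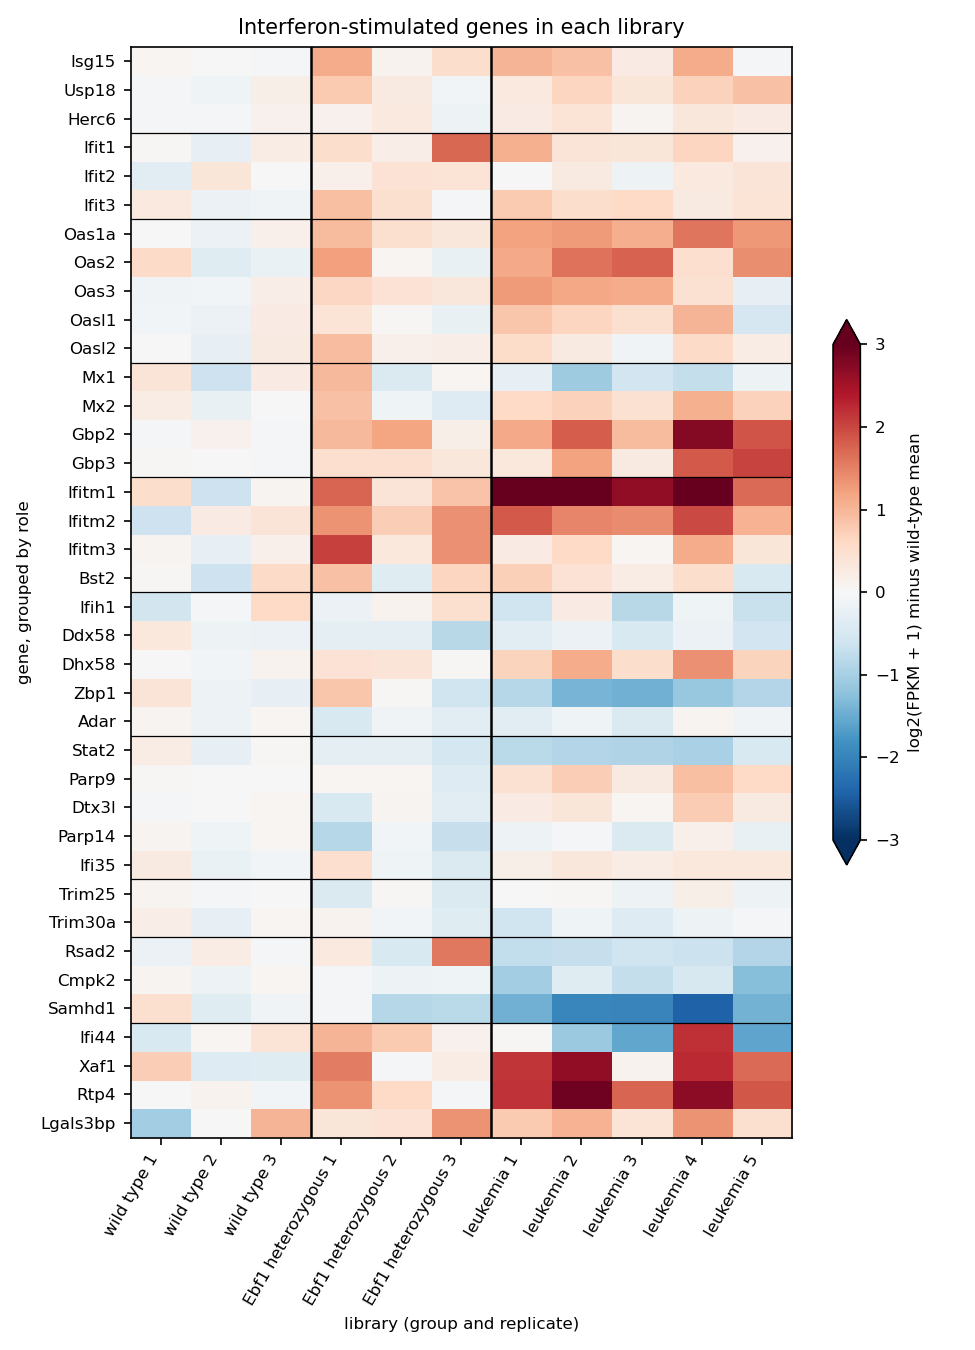
Level of each of the 38 genes in each of the 11 libraries, as log2(FPKM + 1) minus the wild-type mean of that gene; colours are clipped at 3 in either direction. Ifitm1, Rtp4, Gbp2 and Oas1a are above the wild-type mean in all 5 leukemias, Samhd1, Zbp1 and Stat2 are below it, and Ifi44 and Xaf1 differ among the leukemias.

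In Ebf1+/- cells against wild type no member passed the adjusted test, and neither did any of the 11167 genes tested (0%). Voom on recovered reads also called 0 members. At an unadjusted p under 0.05, 6 members were higher (background 4.19%) and 1 was lower (background 3.54%). Groups did not overlap for 7 higher members (background 7.53%), Isg15, Oas1a, Oas3, Gbp2, Gbp3, Ifitm2 and Ifitm3, and for 2 lower members (background 8.1%), Ddx58 and Stat2. The median difference was 0.33 over the members and 0.03 over all genes tested, and it was 0.12 without Ebf1+/- replicate 1 and 0.10 with a filter at a mean of 5 FPKM.

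By role, the 4 membrane factors had the highest median difference, 1.07. The difference was 1.25 (SE 0.41) for Ifitm3 (limma adjusted p = 0.55), 1.15 (SE 0.31) for Ifitm2 (adjusted p = 0.44) and 0.78 (SE 0.27) for Gbp2 (adjusted p = 0.575). For Oas1a it was 0.59 (SE 0.21, limma adjusted p = 0.575). These fits did not use the pairing of replicate numbers. With the replicate block the limma adjusted p was 0.131 for Ifitm3, 0.154 for Ifitm2, 0.174 for Gbp2 and 0.217 for Oas1a. All 5 of the STAT group had a negative difference. Ebf1+/- replicate 1 was the highest of its group for 24 of the 38 genes and the highest of all libraries for 8, counts that were not made over all genes. That library also had the highest sums of granulocyte markers, 10664 FPKM, and of monocyte and macrophage markers, 2049 FPKM, and their part in the member levels was not tested. The Ebf1+/- libraries had other alignment tools listed than the rest, which cannot be told apart from genotype.

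**Figure D5:**
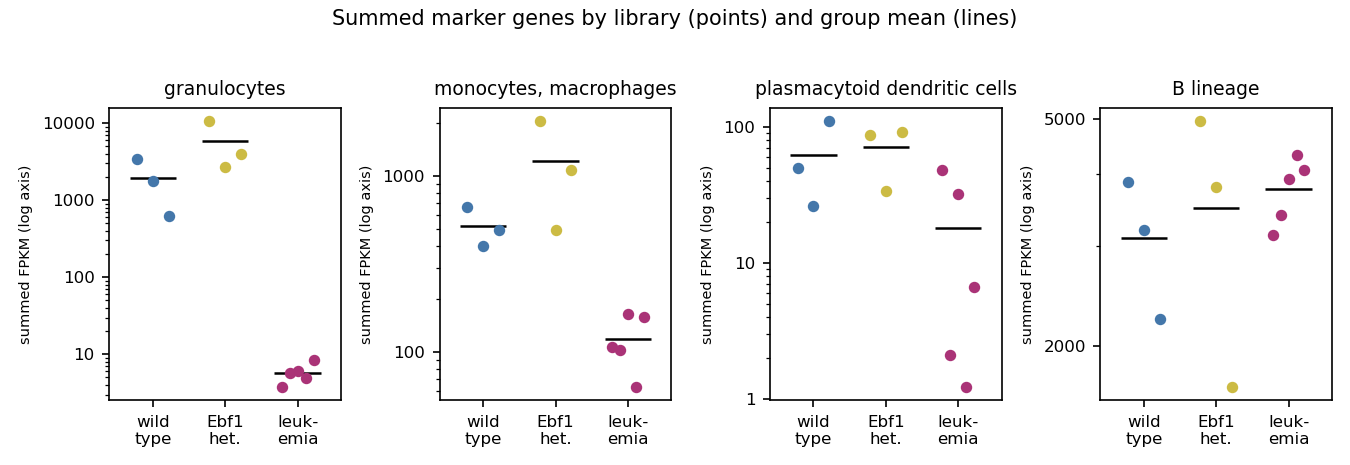
Summed FPKM of marker genes on a log axis in each library (points), with group means (lines), for 4 cell types. Granulocyte sums lie at 3.79 to 8.36 in leukemia and at 630 or above in all bone marrow libraries, while B lineage sums overlap among the groups.

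Leukemia against Ebf1+/- cells gave 4 members higher (10.5%, near the background of 9.31%) and 2 lower (5.26%, against a background of 12.3%). Oas1a, Parp9, Dtx3l and Rtp4 were higher, with log2 differences of 0.71, 0.69, 0.58 and 1.64 (limma adjusted p = 0.0202, 0.0234, 0.0499 and 0.0119). Zbp1 and Samhd1 were lower, with differences of -1.23 and -1.27 (limma adjusted p = 0.0229 and 0.0112). Samhd1 and Rtp4 kept their call in all 17 alternative settings, and Dtx3l in 6 of 17. The 4 higher members became 1 without Ebf1+/- replicate 3 and under the replicate block, and the 2 lower became 1 without leukemia replicate 3. This comparison shares the leukemia libraries with the comparison to wild type.

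Interferon transcripts themselves were nearly absent from the libraries. Of 21 interferon genes in the table, 16 had no read in any library, and a count of 0 allows up to 3 reads. A further 4 had at most 1 read in a library. Ifng had 3, 1 and 4 reads in wild type, 5, 1 and 3 in Ebf1+/- cells, and 1, 0, 0, 0 and 0 in leukemia. These depths do not allow a comparison between groups.

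In the lists that follow, counts in leukemia stand against the 20.7% of all genes tested that were higher and the 24.1% that were lower. Of 6 interferon receptor genes, 2 rose (33.3%) and none fell. Both encode the type II receptor. Ifngr1 rose from 49.6 ± 12.3 to 111 ± 13.9 FPKM (log2 difference 1.17, limma adjusted p = 0.000563), and Ifngr2 from 23.5 ± 5.16 to 35.8 ± 2.596 (0.61, adjusted p = 0.00552). The type I receptor genes Ifnar1 and Ifnar2 had differences of 0.24 and -0.20 and did not pass.

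Of 9 kinases and transcription factors downstream, 1 rose (11.1%) and 2 fell (22.2%, near the share of all genes). With 9 genes these shares are not read as a result about the list. Jak2 fell from 17.7 ± 3.61 to 8.79 ± 1.84 FPKM (difference -0.94, limma adjusted p = 0.00355). Irf2, which can repress ISRE genes, fell by 0.50 (adjusted p = 0.00555). Irf7, the factor that amplifies type I interferon, was the gene that rose, from 12.4 ± 5.27 to 24.9 ± 8.15 FPKM (0.96, limma adjusted p = 0.0354). Irf9 joins Stat2 in the type I complex, and it averaged 33.7 ± 5.02 FPKM in wild type and 31.4 ± 4.87 in leukemia, which did not pass.

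Of 6 inhibitors of the pathway, 2 rose (33.3%) and 3 fell (50%). The phosphatase Ptpn6 rose from 77.5 ± 4.77 to 123 ± 21.4 FPKM (0.65, limma adjusted p = 0.00416). Socs3, which blocks Jak kinases, rose from 0.894 ± 0.120 to 3.49 ± 1.97 FPKM (1.14, adjusted p = 0.0183). Pias1, which restrains signalling by STAT proteins, fell from 24.3 ± 0.948 to 15.6 ± 1.75 FPKM (difference -0.62, adjusted p = 0.00201).

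Of 13 tested genes that sense nucleic acids upstream of interferon, 4 rose (30.8%) and 3 fell (23.1%, near the share of all genes). Tlr7, the receptor for single-stranded RNA, rose from 2.24 ± 1.30 to 15.3 ± 2.30 FPKM (2.39, limma adjusted p = 0.000102). The adaptor Tmem173 (STING) rose from 29.8 ± 4.60 to 71.6 ± 7.43 FPKM (1.24, adjusted p = 0.000108). The ubiquitin ligase Traf6, which carries Toll-like receptor signals, fell from 30.6 ± 3.95 to 13.6 ± 1.43 FPKM (difference -1.12, adjusted p = 0.000137). In Ebf1+/- cells no gene of these lists passed.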

How the data were processed

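RNA sequencing values came from 1 table of FPKM that the authors deposited, with 1 column per library and 23071 gene identifiers. The submitters' processing notes list BWA 0.7.12 for wild type and leukemia, TopHat2 and Cufflinks for Ebf1 heterozygous cells, and mm10. No source used here names the read counter or annotation. Nonzero values of all 17380 genes were whole reads within 0.001 read for a whole-number gene length (10634 with the RefSeq exon length), which gave the library totals. Counting limits cover counting error only, since reads were not tied to single molecules by identifiers.

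The test used log2(FPKM + 1) of genes averaging 1 FPKM or more over a comparison's libraries, with limma 3.58.1 in R 4.3.3 (trend, two-sided, only the 2 groups compared, Benjamini-Hochberg adjustment). All 38 members passed this filter in all 3 comparisons. A difference on this scale understates changes of low genes. Each p-value sets a difference between groups against the spread between libraries, pooled over the groups in the fit. Libraries are pools of mice or single leukemias, and their spreads may differ. Code was tested on simulated data. Tables were made with pandas 2.3.3 and NumPy 2.4.6 in Python 3.11.15 and figures with Matplotlib 3.10.9. Gene positions and promoter sequences are from RefSeq (GRCm38.p6).

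Values were given for each library for the 12 called members of largest difference in leukemia with at least 5 FPKM and no overlap of groups, the 4 of largest difference in Ebf1 heterozygous cells by the same criteria without a call, the 4 of highest mean over all libraries, and Pax5 and Ebf1 as ranges; in other lists the 3 called genes of smallest p were named. Isg15, Ifi44, Gbp5, Gbp6, Gbp7, Gbp8, Ifnar1, Ifnar2 and Irf9 were added after the values were seen. A gene of the list of kinases and transcription factors is not reported here. Members and lists were chosen with earlier results of these data known.

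Replicate numbers in wild type and Ebf1 heterozygous cells correlated in their deviations from group means (0.65, 0.32 and 0.69), so the titles' numbers were taken to pair these samples; numbers of the leukemias did not (-0.14 to 0.07 with wild type). Alternatives were array weights, a replicate block, leaving out each replicate, a pseudocount of 0.1, no filter or one at 5 FPKM, scaling by quantiles or median ratios, a single fit of all groups, and voom on recovered reads, which was added after the data were seen. Protein sequences were not used here.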

Additional observations from a re-analysis of the deposited data

How the results depend on the processing

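No member changed the sign of a called difference under any alternative run. Against wild type, Oas1a, Oas2, Gbp2, Ifitm2, Dhx58, Zbp1, Stat2, Parp9, Samhd1 and Rtp4 kept their call in all alternatives in which they were tested. The 13 members higher in leukemia became 23 with array weights and 8 to 14 when 1 replicate was left out, with 8 without wild-type replicate 2. The 5 lower members became 3 with a filter at a mean of 5 FPKM, which leaves fewer members to test. With the replicate block 12 were higher and 4 lower, and with voom on recovered reads 9 and 5. Between Ebf1 heterozygous cells and wild type, whose numbers pair, 0 members were called with limma under every alternative, the replicate block included, which changed no call there. For leukemia against Ebf1 heterozygous cells, the 4 higher members became 1 under the replicate block and 1 to 6 with 1 replicate left out, 1 without Ebf1 heterozygous replicate 3 and 6 without replicate 1. The 2 lower members became 1 with a filter at a mean of 5 FPKM, 1 with quantile scaling, 4 with all groups in 1 fit, and 1 to 3 with 1 replicate left out. The causes of the other shifts were not tested. Members under 3 FPKM, such as Mx1, Ifit3 and Rsad2, rest on few reads.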

Other observations

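Outside the 38, other interferon-stimulated genes were counted in leukemia against wild type, where 20.7% of all genes tested were higher and 24.1% lower. Of 41 tested type I response genes, 12 rose (29.3%) and 5 fell (12.2%). Of 12 tested type II response genes, 3 rose and 3 fell (25.0% each, near the shares of all genes). Parp12, an antiviral ADP-ribosyltransferase, rose from 2.84 ± 0.724 to 10.6 ± 1.16 FPKM (log2 difference 1.61, limma adjusted p = 9.04e-05). Tor3a rose from 8.72 ± 0.494 to 23.4 ± 3.92 FPKM (1.31, adjusted p = 0.000155) and Ifi27 from 45.0 ± 5.78 to 82.0 ± 7.24 FPKM (0.85, adjusted p = 0.0004). Tgtp2, a GTPase of the type II response, rose from 3.22 ± 0.711 to 13.6 ± 2.79 FPKM (1.78, limma adjusted p = 0.000133). Ciita, the switch for class II antigen presentation, fell from 6.92 ± 0.813 to 1.92 ± 1.02 FPKM (difference -1.50, adjusted p = 0.0019), a gene named after its values were seen.

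Ifnlr1, the receptor subunit for type III interferon, was also looked at after its values were seen. It read 3.28, 2.93, 0.378, 4.11 and 0.116 FPKM in leukemia replicates 1 to 5 and 0.549 to 0.809 in wild type. Leukemias 1, 2 and 4 lay above every wild-type library and leukemias 3 and 5 below, and the difference between the groups did not pass (limma adjusted p = 0.30).

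Of members with a RefSeq promoter, the ISRE-like motif was found for 5 of 7 that rose in leukemia, 2 of 4 that fell and 8 of 18 that did not pass. Among all genes with a promoter the shares were 3.88%, 3.67% and 3.80% in the same order.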
